A study of Mus musculus with 16 samples.

Results

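Interferon-stimulated genes are described here in mouse bone marrow-derived macrophages that met platelets for 4 hours. The 37 genes were taken by name from a fixed list of well-known interferon targets. No measured value was part of that rule, but the list was chosen with earlier results of these data known. All 37 were found among the 46320 genes of the count table. A filter on low counts, applied to the whole table, kept 15610 genes and 36 of the 37; Cxcl9, which encodes a chemokine that draws activated T cells, did not pass. The list holds 8 guanylate-binding protein genes (Gbp2 to Gbp9) and 29 other genes, of which 28 were tested.

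Interferons are secreted proteins through which infected or alerted cells warn their neighbours. Type I interferons signal through Ifnar1 and Ifnar2 to a complex that holds Stat2 and Irf9 and binds a DNA element called the interferon-stimulated response element (ISRE). Interferon gamma signals through Ifngr1 and Ifngr2, and many of its targets carry a DNA element called the gamma-activated sequence (GAS). Macrophages make many of the target genes at a low level without added interferon, through a small tonic signal, and raise them strongly during infection. The guanylate-binding proteins are large GTPases of the cell's own defence, which coat the vacuoles of intracellular pathogens and help to open them.

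All cells were C57BL6/J macrophages grown from marrow of the tibia and femur for 7 days with M-CSF, the growth factor of macrophages, which came from L929 cells in conditioned medium. Per the labels' protocols, 400000 cells were seeded in each well and kept for 4 hours in medium with 0.5% serum before treatment, in every group. Then 4 groups of 4 libraries received, for 4 hours, vehicle (PBS), thrombin, resting platelets or thrombin-activated platelets. Platelets came from the blood of mice of the same strain. Thrombin is the clotting protease that activates platelets. Its dose is stated as 0.01 U/mL in the protocol and as 0.1 U/mL in the labels of the thrombin group, and where both groups are compared the doses are taken to be equal. The labels do not state whether the replicates of a group are separate animals or cultures. The p-values therefore measure the spread among these libraries, some or all of which may be technical. The age of the animals is not given in the sources used here.

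Libraries held 22.6 to 30.6 M counts (M, mega), with the most in the activated platelet group (28.03 to 30.6 M). The summed level of 8 macrophage markers lay between 16515 and 21633 CPM (counts scaled to 1 M per library) in all 16 libraries. The 16 platelet and megakaryocyte markers summed to 210 to 256 CPM in vehicle and 219 to 239 CPM with thrombin alone. They summed to 241 to 283 CPM in the resting platelet group and 419 to 489 CPM in the activated one. Against vehicle, 8 of the 15 tested were called higher with resting platelets, where 2.07% of all tested genes were (edgeR). With activated platelets 14 of the 15 were, where 12.2% of all tested genes were called higher. All 9 T and NK cell markers were under 1 CPM in every library. Of 7 markers of plasmacytoid dendritic cells, the specialised producers of type I interferon, Siglech, Ccr9, Ly6d and Klk1 were under 1 CPM in every library, Ly6d and Klk1 at 0. The list without Bst2, itself one of the 37, summed to 94.1 to 105.4 CPM in vehicle and 127.5 to 141.7 CPM with activated platelets, where Tcf4 and Runx2 rose and Bst2, the third tested, was not called (edgeR). The 6 stromal markers, collagen genes among them, summed to 2007 to 5038 CPM over all libraries, and none was called against vehicle. The 7 erythroid markers summed to at most 0.0714 CPM without platelets, 0.752 to 2.98 CPM with resting and 7.62 to 14.2 CPM with activated platelets. Both tested ones rose with either kind, where 2.07% (resting) and 12.2% (activated) of all tested genes were called higher. The 6 B cell markers summed to 18.6 to 32.9 CPM in vehicle and 6.90 to 12.7 CPM with activated platelets, and the 8 neutrophil markers to 14.8 to 49.7 CPM and 40.2 to 94.3 CPM. The part of these other cells in the results was not tested. The second activated platelet library stood apart in most of the 37 genes. Counts of the tested ones without it are given for each comparison with activated platelets. In bulk RNA, fewer cells of a type and less RNA per cell cannot be told apart.

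Promoters of 27 of the 37 genes were matched by symbol in a table of RefSeq promoters (mouse build GRCm38.p6, 250 bases before to 50 bases after each start). Gbp4, Gbp6, Gbp8, Gbp9, Mx1, Mx2, Parp14, Rtp4, Usp18 and Zbp1 are named only. The 5 promoters shown are those of Gbp5 and Gbp2, both on chromosome 3, of Isg15, the namesake of the group, and of Ddx60 and Irf1, which changed with activated platelets. Each line gives the 250 bases before the start, 5′ to 3′ on the gene's own strand. Capitals mark matches to the ISRE (GAAA NN GAAA, where N is any base, or its reverse complement TTTC NN TTTC) and to the GAS (TTCNNNGAA, its own reverse complement).
Gbp5: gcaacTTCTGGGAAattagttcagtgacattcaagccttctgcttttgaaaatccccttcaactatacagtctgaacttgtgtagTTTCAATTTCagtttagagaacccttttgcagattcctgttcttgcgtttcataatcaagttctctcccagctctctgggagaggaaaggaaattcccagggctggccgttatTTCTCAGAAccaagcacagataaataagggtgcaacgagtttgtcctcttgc
Gbp2: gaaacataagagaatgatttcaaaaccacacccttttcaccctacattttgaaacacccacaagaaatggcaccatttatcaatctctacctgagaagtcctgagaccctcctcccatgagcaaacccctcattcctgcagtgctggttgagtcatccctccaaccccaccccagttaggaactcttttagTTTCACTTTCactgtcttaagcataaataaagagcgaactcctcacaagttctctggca
Isg15: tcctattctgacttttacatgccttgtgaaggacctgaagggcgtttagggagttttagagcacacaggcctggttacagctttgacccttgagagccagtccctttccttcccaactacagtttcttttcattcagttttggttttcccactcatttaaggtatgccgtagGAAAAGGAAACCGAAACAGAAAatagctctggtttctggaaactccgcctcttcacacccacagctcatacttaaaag
Ddx60: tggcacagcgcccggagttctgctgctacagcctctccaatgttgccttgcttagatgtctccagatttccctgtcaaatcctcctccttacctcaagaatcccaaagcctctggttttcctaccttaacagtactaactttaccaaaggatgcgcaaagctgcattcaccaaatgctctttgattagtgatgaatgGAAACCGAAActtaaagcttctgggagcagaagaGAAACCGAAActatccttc
Irf1: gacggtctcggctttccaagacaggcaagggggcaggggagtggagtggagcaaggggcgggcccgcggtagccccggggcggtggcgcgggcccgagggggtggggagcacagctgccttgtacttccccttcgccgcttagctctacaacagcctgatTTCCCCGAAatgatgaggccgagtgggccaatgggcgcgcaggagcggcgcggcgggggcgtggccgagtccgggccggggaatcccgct

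On GRCm38.p6 these stretches are chr3:142496684-142496933 (plus strand) for Gbp5, chr3:142620413-142620662 (plus) for Gbp2, chr4:156200819-156201068 (minus) for Isg15, chr8:61927837-61928086 (plus) for Ddx60 and chr11:53769764-53770013 (plus) for Irf1. Isg15 holds 3 overlapping ISRE matches that run together, the first at position -78 from the start. Ddx60 holds 2 ISRE matches of the same letters, and Gbp2 holds 1. Gbp5 holds 1 ISRE match and 2 GAS matches, whereas Irf1 holds 1 GAS match and no ISRE match. On both strands of the 300 bases, the ISRE letters occurred in 3.44% of all 32851 promoters and in 16 of the 27 matched genes. The GAS letters occurred in 8.3% of all promoters and in 7 of the 27 genes. A match is a description of letters and was not tested as a binding site.

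Without platelets or thrombin, the group spanned a wide range of levels. On a scale per length (CPM per kilobase of exon, mean of the 4 vehicle libraries), Bst2, which tethers budding virus particles to the cell, was the highest at 141. Parp14, Trim30a, Oasl2, Irf1 and Irf9 followed, between 23.9 and 20.97. Among the guanylate-binding protein genes the order was Gbp2 (16.1), Gbp3 (8.73), Gbp9 (6.07), Gbp8 (4.26), Gbp7 (3.595), Gbp5 (1.75), Gbp6 (0.681) and Gbp4 (0.177). Cxcl9 was the lowest of the 37, with 13 counts over the 4 vehicle libraries, 18 in the thrombin group, 26 in the resting platelet group and 25 in the activated one. Mx1 and Mx2, antiviral dynamin-like GTPases, are annotated in the table as transcribed pseudogenes.

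The ligands themselves were near 0. None of the 15 listed interferon genes passed the filter, and together they had at most 2 counts in 15 libraries and 4 counts in the second activated platelet library. Ifng, which encodes interferon gamma, had 0 counts in all 16 libraries. Ifnb1, the macrophage's main type I interferon, had 2 counts in 1 vehicle library, 1 count in 1 activated platelet library and 0 elsewhere.

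Activated platelets lowered part of the Gbp family, and most of the other interferon-stimulated genes were not called. Relative to vehicle, Gbp9 fell 2.59-fold, Gbp8 2.5-fold and Gbp4 2.25-fold, and outside the family Ddx60 fell 1.40-fold and Irf1 1.27-fold. None of the 36 tested genes was called higher. In all, 5 of 36 tested genes fell (13.9%), where 25.8% of all tested genes were called and 13.6% were called lower, so the share that fell was that of the transcriptome, while 12.2% of all genes were called higher. The median log2 fold change of the 36 genes was -0.04, beside -0.00 over all tested genes, and 23 of 36 values were below 0. The test throughout was edgeR's quasi-likelihood test with Benjamini-Hochberg adjustment over all tested genes. With a block for replicate number, by which libraries were taken to be paired from a hint in the data, the fit added Oas3, Gbp6 and Gbp7 for 8 genes lower and 0 higher, where 22.5% of all genes were called lower and 20% higher.

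**Figure D1:**
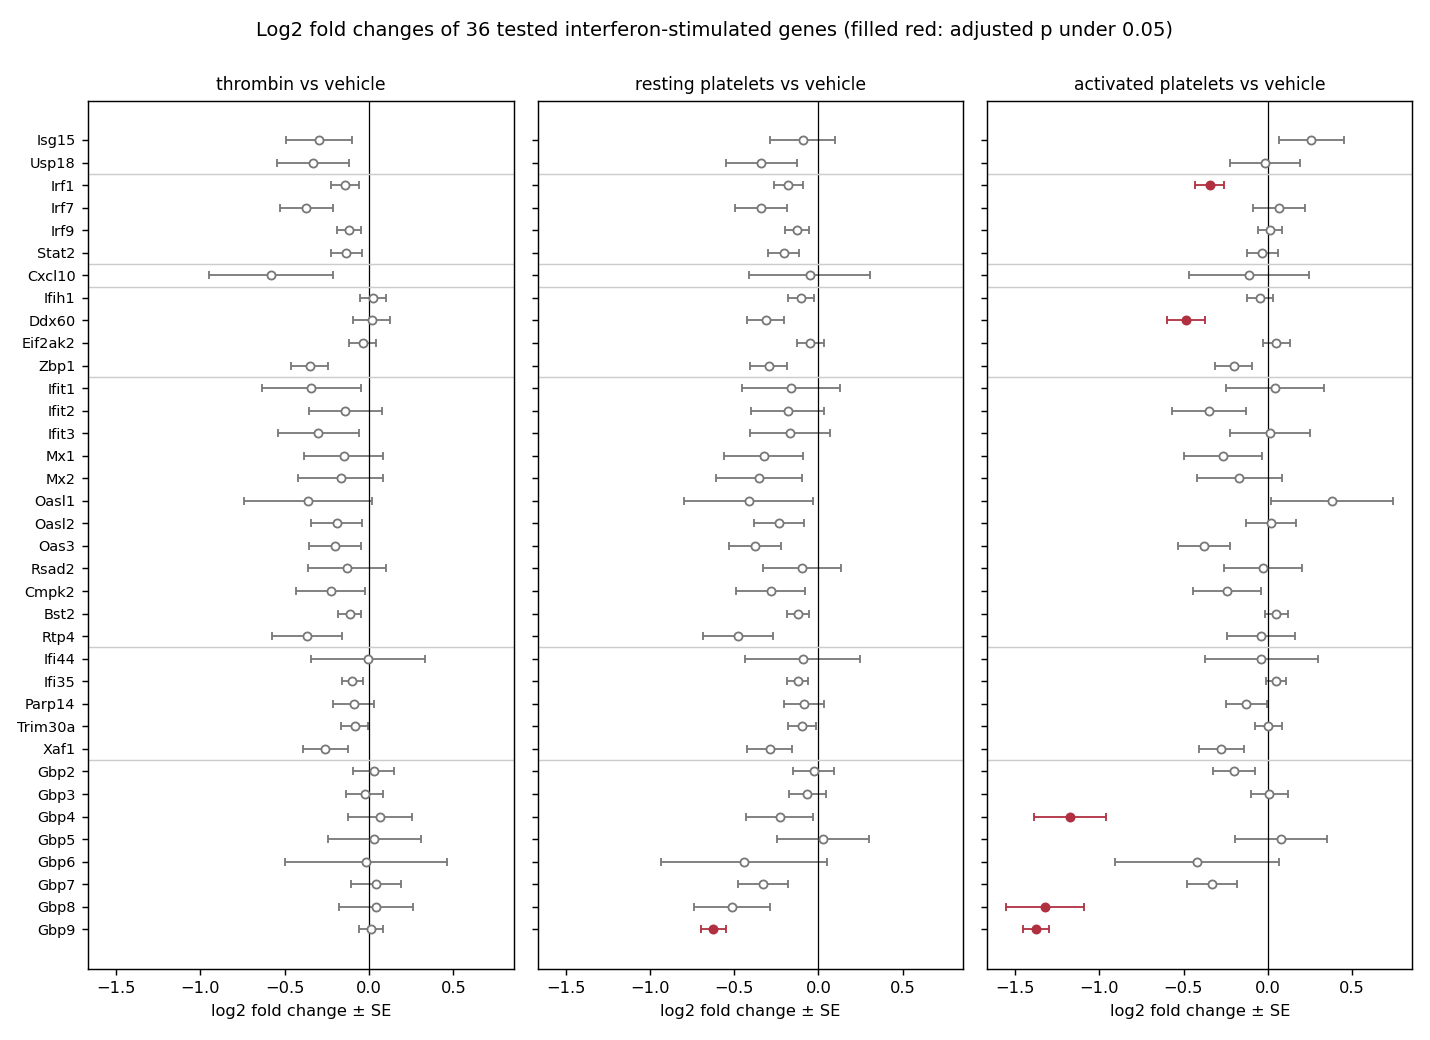
Log2 fold change against vehicle (horizontal axis, ± SE from the edgeR fit) of the 36 tested genes, 1 panel for each treatment, 4 libraries a group; filled red points have an adjusted p under 0.05. No point is red with thrombin, Gbp9 alone is red with resting platelets, and Irf1, Ddx60, Gbp4, Gbp8 and Gbp9 are red with activated platelets, all to the left of 0.

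Gbp9 (NCBI gene 236573, chromosome 5, 105224332 to 105258255 on GRCm39, minus strand) gave the clearest difference. Its level was 38.6, 34.5, 39.5 and 40.9 CPM in the vehicle libraries and 38.7, 37.7, 38.1 and 40.3 CPM with thrombin. It was 25.8, 21.6, 25.5 and 26.7 CPM with resting platelets and 13.6, 16.1, 13.4 and 16.1 CPM with activated platelets. Every activated library lay below every resting library, and every resting library below every library without platelets, whereas thrombin and vehicle overlapped. The log2 fold change against vehicle was -0.62 ± 0.07 (SE) with resting platelets (edgeR adjusted p = 0.000323) and -1.37 ± 0.08 with activated platelets (adjusted p = 4.77e-09). Between the platelet groups it was -0.75 ± 0.08, lower with activated platelets (edgeR adjusted p = 8.53e-06), and these comparisons share libraries. With thrombin alone it was 0.01 ± 0.07 (edgeR adjusted p = 0.986). The thrombin effect with platelets minus that without was -0.76 ± 0.11 (edgeR adjusted p = 0.00051). Each of these calls held when any 1 library, or any 1 replicate number, was left out.

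Gbp8 (gene 76074, chromosome 5, 105160379 to 105201475, minus strand) lies beside it. Its level was 17.3, 14.9, 18.7 and 24.0 CPM in vehicle, 17.7, 12.9, 18.1 and 28.4 CPM with thrombin, and with platelets at 12.6, 11.46, 11.7 and 16.8 CPM (resting) and 6.71, 6.03, 6.79 and 10.5 CPM (activated). The activated libraries lay below all others, and the resting and vehicle libraries overlapped. Against vehicle the log2 fold change was -1.32 ± 0.23 with activated platelets (edgeR adjusted p = 0.000464) and -0.51 ± 0.22 with resting platelets (adjusted p = 0.224). Within each of the 4 replicate numbers the resting library was below its vehicle library, and with the replicate block the resting value was called (edgeR adjusted p = 3.15e-05). Activated platelets against resting platelets gave -0.81 ± 0.23 (edgeR adjusted p = 0.0254). That call ended without the fourth resting library (0.0789) or without activated library 1, 2 or 3 (0.0749, 0.0691 and 0.0657), and without replicate number 1, 2 or 3 in all groups (0.194, 0.0687 and 0.13). The thrombin effect with platelets minus that without was -0.85 ± 0.32, not called without the block (edgeR adjusted p = 0.104) and called with it (2.74e-06).

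Gbp4 (gene 17472, chromosome 5, 105263633 to 105287452, minus strand) was the lowest of the family, with 8 to 32 counts in a library. Its level was 0.895, 0.727, 0.952 and 1.14 CPM in vehicle, 1.00, 0.886, 0.880 and 1.13 CPM with thrombin, and with platelets at 0.757, 0.742, 0.774 and 0.910 CPM (resting) and 0.259, 0.485, 0.395 and 0.51 CPM (activated). The activated libraries lay below all others, and the other groups overlapped. The log2 fold change was -1.17 ± 0.21 against vehicle (edgeR adjusted p = 0.000662) and -0.94 ± 0.22 against resting platelets (adjusted p = 0.00794). The latter ended when replicate number 1 (0.0822) or 3 (0.0667) was left out of all groups. The thrombin effect with platelets minus that without was -1.01 ± 0.29 (edgeR adjusted p = 0.0377), a call that held in 5 of 16 fits with 1 library left out (0.0342 to 0.118). It ended without any 1 of the others, which are all but vehicle 4, thrombin 2 and 3 and activated 2 and 4, and without any 1 replicate number (0.0805 to 0.268).

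The fourth gene of this stretch of chromosome 5, Gbp6, varied more between replicate numbers than between groups. It lay at 1.75, 2.64, 3.70 and 5.14 CPM in vehicle, 1.24, 3.00, 3.04 and 5.77 CPM with thrombin, and with platelets at 1.02, 1.81, 3.37 and 3.56 CPM (resting) and 0.875, 3.05, 2.12 and 3.88 CPM (activated). The first library was the lowest and the fourth the highest in all 4 groups. The value against vehicle was -0.42 ± 0.49 with activated platelets (edgeR adjusted p = 0.58), and -0.43 with the replicate block, where it was called (0.0364). Counts of Gbp4, Gbp6, Gbp8 and Gbp9 were not whole numbers in 12 to 16 of 16 libraries, as were not those of Xaf1, Eif2ak2 and Ifit3, and those of Gbp3 and Gbp7 in 10. How reads with several matches were counted is not given in the sources used here, and each of the 4 is uncertain as a single gene.

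The guanylate-binding protein genes of chromosome 3 gave no call against vehicle without the block. Gbp2 lay at 46.5, 35.6, 36.2 and 40.1 CPM in vehicle, 47.4, 37.5, 35.3 and 41.2 CPM with thrombin, and with platelets at 46.1, 33.0, 36.2 and 40.2 CPM (resting) and 32.4, 41.2, 30.2 and 34.2 CPM (activated). Gbp3 lay at 26.1, 26.3, 30.4 and 28.2 CPM in vehicle, 23.9, 29.4, 28.3 and 27.3 CPM with thrombin, and with platelets at 25.4, 25.3, 26.9 and 28.3 CPM (resting) and 23.0, 35.8, 24.7 and 28.1 CPM (activated). Both overlapped between all groups, with the second activated library the highest of its group.

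Gbp5, which helps to assemble the NLRP3 inflammasome, lay at 5.26, 4.45, 6.04 and 5.42 CPM in vehicle, 5.26, 4.58, 6.29 and 5.59 CPM with thrombin, and with platelets at 4.51, 3.88, 7.31 and 5.90 CPM (resting) and 3.53, 10.1, 4.42 and 4.39 CPM (activated). Its second activated library was thus above all others, and the other 3 activated libraries were below all vehicle libraries. Gbp7 lay at 20.3, 15.9, 23.3 and 21.3 CPM in vehicle, 20.7, 17.8, 22.8 and 21.9 CPM with thrombin, and with platelets at 16.4, 10.8, 17.5 and 19.8 CPM (resting) and 14.5, 17.2, 16.03 and 16.8 CPM (activated). It was not called against vehicle with either kind of platelets (-0.33 ± 0.15 in both, edgeR adjusted p = 0.121 with activated and 0.243 with resting platelets). With the replicate block both were called lower (edgeR adjusted p = 0.0195 and 0.0337). Every activated library lay below every thrombin library. That difference was -0.37, not called without the block (edgeR adjusted p = 0.084) and called with it (0.00996).

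**Figure D2:**
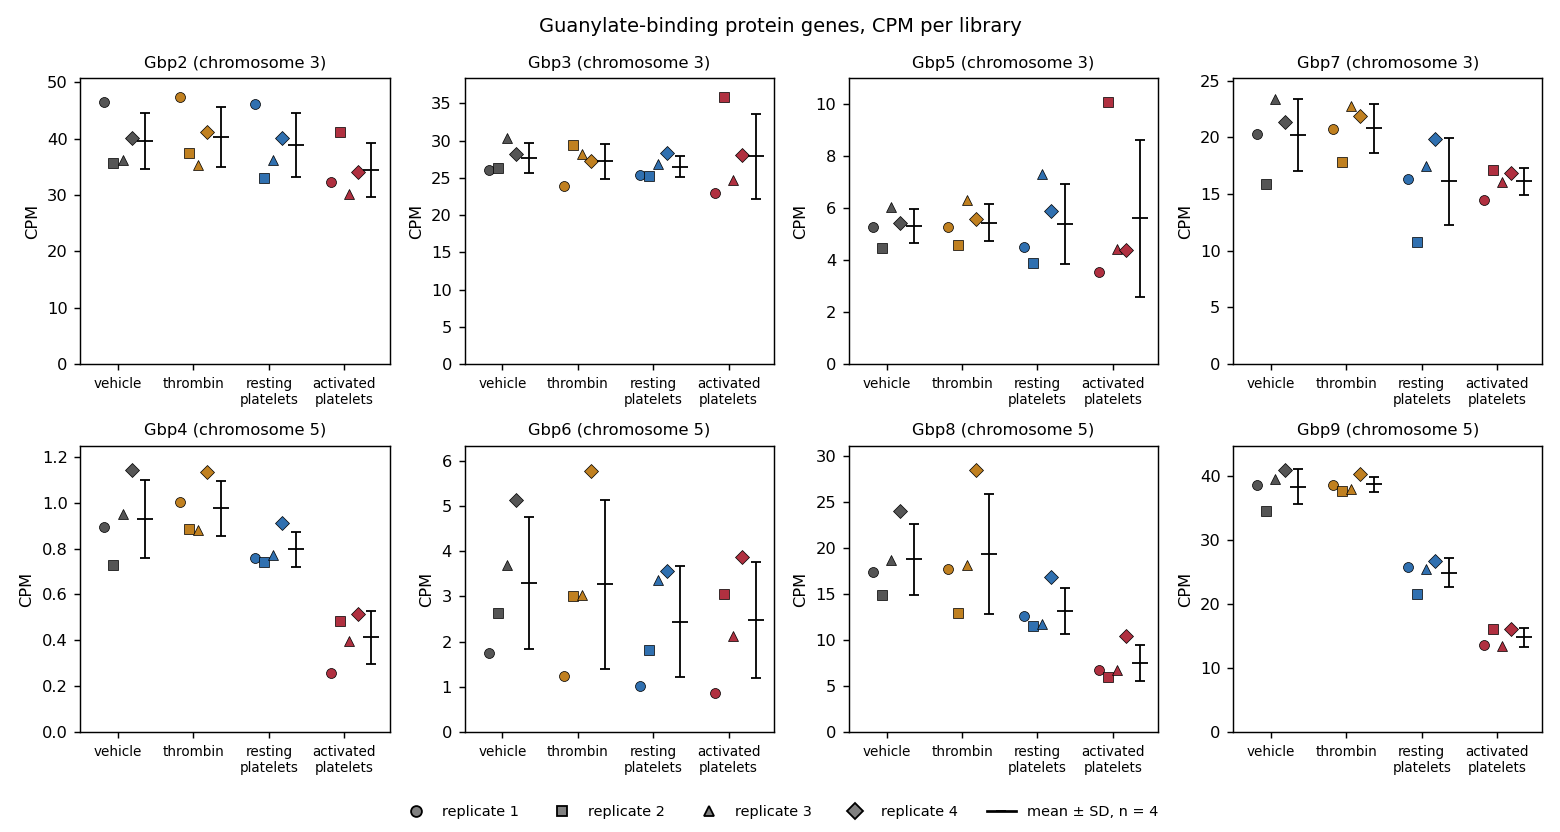
Level in CPM (vertical axis from 0) of the 8 Gbp genes in each library, by group, with marker shape for the replicate number and mean ± SD of 4 libraries beside each group. Gbp9, Gbp8 and Gbp4 step down with activated platelets with no overlap with vehicle, and Gbp6 spreads by replicate number. The 4 genes of chromosome 3 overlap between groups, except Gbp7 between thrombin and activated platelets.

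Split by chromosome, a division made after the values were seen and given without a test, the family showed 2 patterns. The mean log2 CPM of Gbp4, Gbp6, Gbp8 and Gbp9 was 2.78 ± 0.29 (SD, n = 4) in vehicle, 2.78 ± 0.33 with thrombin, and with platelets it was 2.33 ± 0.28 (resting) and 1.72 ± 0.39 (activated). That of Gbp2, Gbp3, Gbp5 and Gbp7 was 4.21 ± 0.13, 4.23 ± 0.07, 4.10 ± 0.22 and 4.07 ± 0.30. Within replicate numbers 1 to 4, activated minus vehicle was -1.33, -0.68, -1.23 and -0.995 on chromosome 5, below 0 in all 4. On chromosome 3 it was -0.44, 0.48, -0.39 and -0.22, below 0 in 3 of 4. Resting minus vehicle on chromosome 5 was -0.50, -0.39, -0.43 and -0.49.

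Of the transcription factors that carry the response, Irf1 fell and the others were not called against vehicle. Irf1 (gene 16362, chromosome 11, 53660841 to 53669200, plus strand), induced by interferon gamma and inflammatory signals, lay at 70.5, 74.2, 69.8 and 68.0 CPM in vehicle and 60.6, 68.6, 66.9 and 59.8 CPM with thrombin. It lay at 58.9, 59.2, 70.5 and 61.0 CPM with resting platelets and 50.5, 66.8, 54.7 and 50.2 CPM with activated platelets. The activated libraries lay below all vehicle libraries and overlapped those of thrombin and resting platelets. The log2 fold change with activated platelets was -0.35 ± 0.08 (edgeR adjusted p = 0.006), and the call ended when replicate number 1 (0.0803) or 4 (0.0534) was left out of all groups. With resting platelets it was -0.18 ± 0.08 (edgeR adjusted p = 0.259), called with the replicate block (0.0429).

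Irf7, which drives the interferon alpha genes, was not called against vehicle (log2 fold change 0.06 with activated and -0.34 with resting platelets). It was called for the thrombin effect with platelets minus that without, and for activated platelets against thrombin. It lay at 32.7, 26.0, 34.0 and 34.6 CPM in vehicle, 24.8, 23.5, 20.6 and 29.6 CPM with thrombin, and with platelets at 24.7, 22.9, 25.7 and 27.4 CPM (resting) and 26.3, 42.4, 25.6 and 39.1 CPM (activated). The thrombin effect was 0.78 ± 0.22 higher with platelets than without them on the log2 scale (edgeR adjusted p = 0.0337). Thrombin alone against vehicle was -0.37 ± 0.16 (edgeR adjusted p = 0.366), and activated platelets against thrombin 0.44 ± 0.15 (adjusted p = 0.0492, and 0.0597 with the replicate block). Leaving out 1 library at a time, the first call held in 5 of 16 fits (0.0178 to 0.0697) and the second in 4 of 16 (0.0169 to 0.166), so neither was firm. The first ended without any 1 library but vehicle 2, thrombin 4, resting 4 and activated 1 and 3, and the second without any 1 but vehicle 2, thrombin 4 and activated 1 and 3. Irf9 and Stat2, partners in the ISRE-binding complex, gave 0.01 ± 0.07 and -0.03 ± 0.09 with activated platelets against vehicle (edgeR adjusted p = 0.912 and 0.835).

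The ubiquitin-like modifier Isg15, often the most strongly induced interferon target, lay at 9.73, 6.73, 6.99 and 7.60 CPM in vehicle, 6.02, 6.16, 5.63 and 7.43 CPM with thrombin, and with platelets at 7.31, 7.83, 7.43 and 6.57 CPM (resting) and 7.75, 14.1, 6.36 and 8.95 CPM (activated). All groups overlapped. Activated platelets against vehicle gave 0.26 ± 0.19 (edgeR adjusted p = 0.363) and against thrombin 0.56 ± 0.19 (adjusted p = 0.0452). The latter was called in 5 of 16 fits with 1 library left out (0.0112 to 0.171), which are those without vehicle 1 or 2, thrombin 4 or activated 1 or 3. Without the second activated library it was 0.28 (0.171). Usp18, which removes Isg15 from proteins and damps the receptor, gave -0.02 ± 0.21 with activated platelets against vehicle (edgeR adjusted p = 0.968).

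Cxcl10, a chemokine for activated T cells, lay at 6.23, 7.45, 4.76 and 4.995 CPM in vehicle, 3.85, 4.24, 3.56 and 3.92 CPM with thrombin, and with platelets at 5.04, 4.62, 7.23 and 5.62 CPM (resting) and 3.83, 12.0, 3.16 and 2.64 CPM (activated). The thrombin libraries lay below all vehicle libraries, but the difference was not called (-0.58 ± 0.37, edgeR adjusted p = 0.599). In the fit without the second activated library, which is in neither group, it was -0.58 ± 0.17. It was not called there (edgeR adjusted p = 0.185), but was with the block as well (0.0251). With activated platelets 3 libraries were below all vehicle libraries and the second was above all. The log2 fold change was -0.11 ± 0.36 with all 4 libraries (edgeR adjusted p = 0.758) and -0.86 ± 0.18 without the second (0.00302).

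Among the sensors of foreign nucleic acid, Ddx60 (gene 234311, chromosome 8, 62381121 to 62490735, plus strand), a helicase that aids RNA sensing, was called. It lay at 17.8, 17.6, 21.1 and 19.1 CPM in vehicle, 17.1, 19.9, 19.3 and 20.1 CPM with thrombin, and with platelets at 14.5, 15.4, 15.7 and 15.4 CPM (resting) and 10.8, 17.0, 11.8 and 14.4 CPM (activated). Libraries with either kind of platelets lay below all libraries without platelets. The log2 fold change against vehicle was -0.49 ± 0.11 with activated platelets (edgeR adjusted p = 0.00425), a call that ended when replicate number 3 was left out of all groups (0.0769). With resting platelets it was -0.31 ± 0.11 (edgeR adjusted p = 0.131), called with the replicate block (0.0109). Ifih1, the sensor of long double-stranded RNA also known as MDA5, and Eif2ak2, the kinase that halts translation on double-stranded RNA, gave -0.05 ± 0.08 and 0.05 ± 0.08 with activated platelets (edgeR adjusted p = 0.727 and 0.706). Zbp1, which binds Z-form nucleic acid and can trigger cell death, gave -0.20 ± 0.11 with activated platelets (edgeR adjusted p = 0.199).

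The 12 antiviral effectors gave no call against vehicle without the block. With activated platelets their log2 fold changes ran from -0.38 ± 0.15 for Oas3, which makes the messenger that activates RNase L (edgeR adjusted p = 0.0823, and 0.0258 with the block), to 0.38 ± 0.36 for Oasl1 (adjusted p = 0.491). Ifit1, Ifit2 and Ifit3, which bind foreign RNA, gave 0.04 ± 0.29, -0.35 ± 0.22 and 0.02 ± 0.24. Rsad2, which makes a chain-terminating nucleotide from a substrate that its neighbour Cmpk2 helps to supply, gave -0.03 ± 0.23, and Cmpk2 gave -0.24 ± 0.20. The others were Mx1 (-0.27), Mx2 (-0.17), Oasl2 (0.02), Bst2 (0.05) and Rtp4 (-0.04). The 5 remaining genes were not called either: Xaf1 at -0.28 ± 0.13, Parp14 at -0.13 ± 0.12, Ifi44 at -0.04 ± 0.34, Trim30a at 0.00 ± 0.08 and Ifi35 at 0.05 ± 0.06.

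The second activated platelet library stood apart. It was the highest of the group for 32 of 36 tested interferon-stimulated genes, beside 26.4% of all tested genes. Ifit1 lay at 10.5, 27.0, 7.98 and 10.3 CPM in the 4 activated libraries, beside 12.4 to 14.6 CPM in vehicle. Rsad2 lay at 30.7, 59.1, 22.5 and 26.3 CPM, beside 31.3 to 37.7 CPM in vehicle. For both genes the second library was above all vehicle libraries and the other 3 were below them. The mean log2 CPM of the 28 genes outside the Gbp family was 4.30, 5.02, 4.15 and 4.48 in the activated libraries and 4.64, 4.46, 4.69 and 4.66 in vehicle. Activated minus vehicle was thus -0.34, 0.56, -0.54 and -0.18 within replicate numbers 1 to 4. In the same second library the interferon genes had 4 counts, 3 of them from Ifnk, and the neutrophil, B cell and platelet markers summed to 40.2, 6.90 and 489 CPM. The other activated libraries had 43.3 to 94.3, 8.11 to 12.7 and 419 to 458 CPM. The stromal and erythroid markers summed to 2007 CPM, the lowest of all 16 libraries, and 14.2 CPM, the highest, beside 2353 to 4321 CPM and 7.62 to 10.5 CPM in the other activated libraries. The part of these in the difference was not tested.

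**Figure D3:**
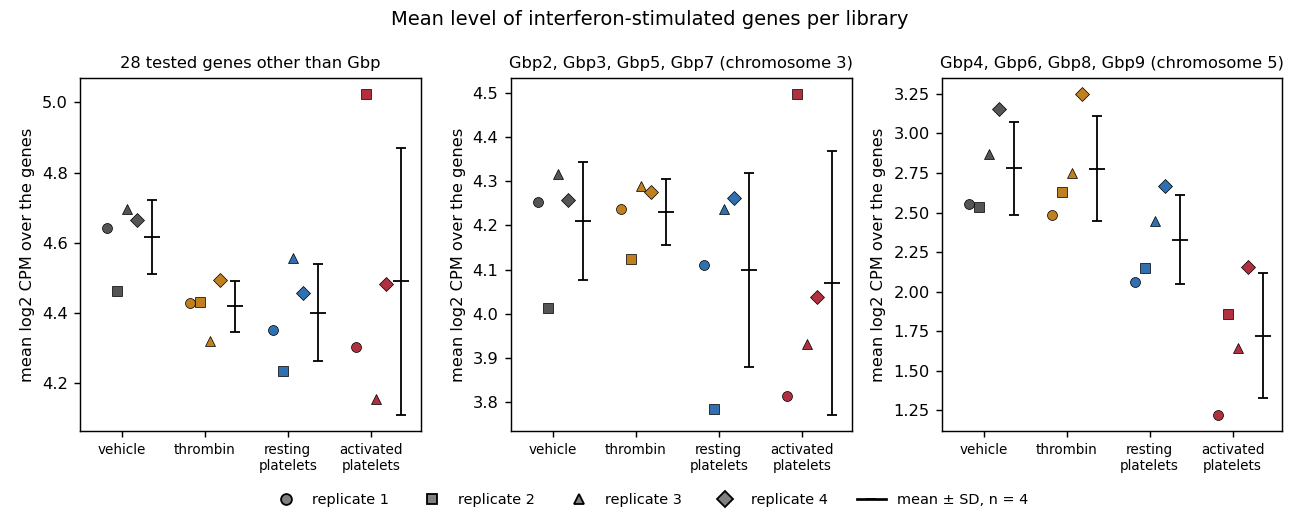
Mean log2 CPM (vertical axis, not from 0) of 3 sets of genes in each library, by group, with marker shape for the replicate number and mean ± SD of 4 libraries. Outside the Gbp family the second activated library is at 5.02 and the other 3 are between 4.15 and 4.48, whereas the activated libraries of the chromosome 5 set all lie below the vehicle libraries.

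Without the second activated library, 14 of 36 genes fell with activated platelets against vehicle and none rose, where 23.6% of all tested genes were called and 12.5% were called lower (edgeR). The median was then -0.35, and 33 of 36 values were below 0. Beside the 5 genes already named, those called were Cxcl10 (-0.86), Ifit2 (-0.70), Mx1 (-0.60), Oas3 (-0.60), Cmpk2 (-0.57), Ifit1 (-0.50), Xaf1 (-0.46), Zbp1 (-0.34) and Parp14 (-0.31). Gbp9, Gbp8 and Gbp4 were at -1.42, -1.23 and -1.26. Of the genes still not called, those that moved by more than 0.25 were Mx2 (-0.52), Rsad2 (-0.41), Gbp5 (-0.37), Ifit3 (-0.36), Rtp4 (-0.30), Usp18 (-0.30), Isg15 (-0.02) and Oasl1 (0.07). With the replicate block as well, 20 of 36 fell with activated platelets and 15 of 36 with resting platelets, where 20.7% and 11.1% of all tested genes were called lower, and none rose. These fits were chosen after the data were seen and do not show which libraries represent the treatment.

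**Figure D4:**
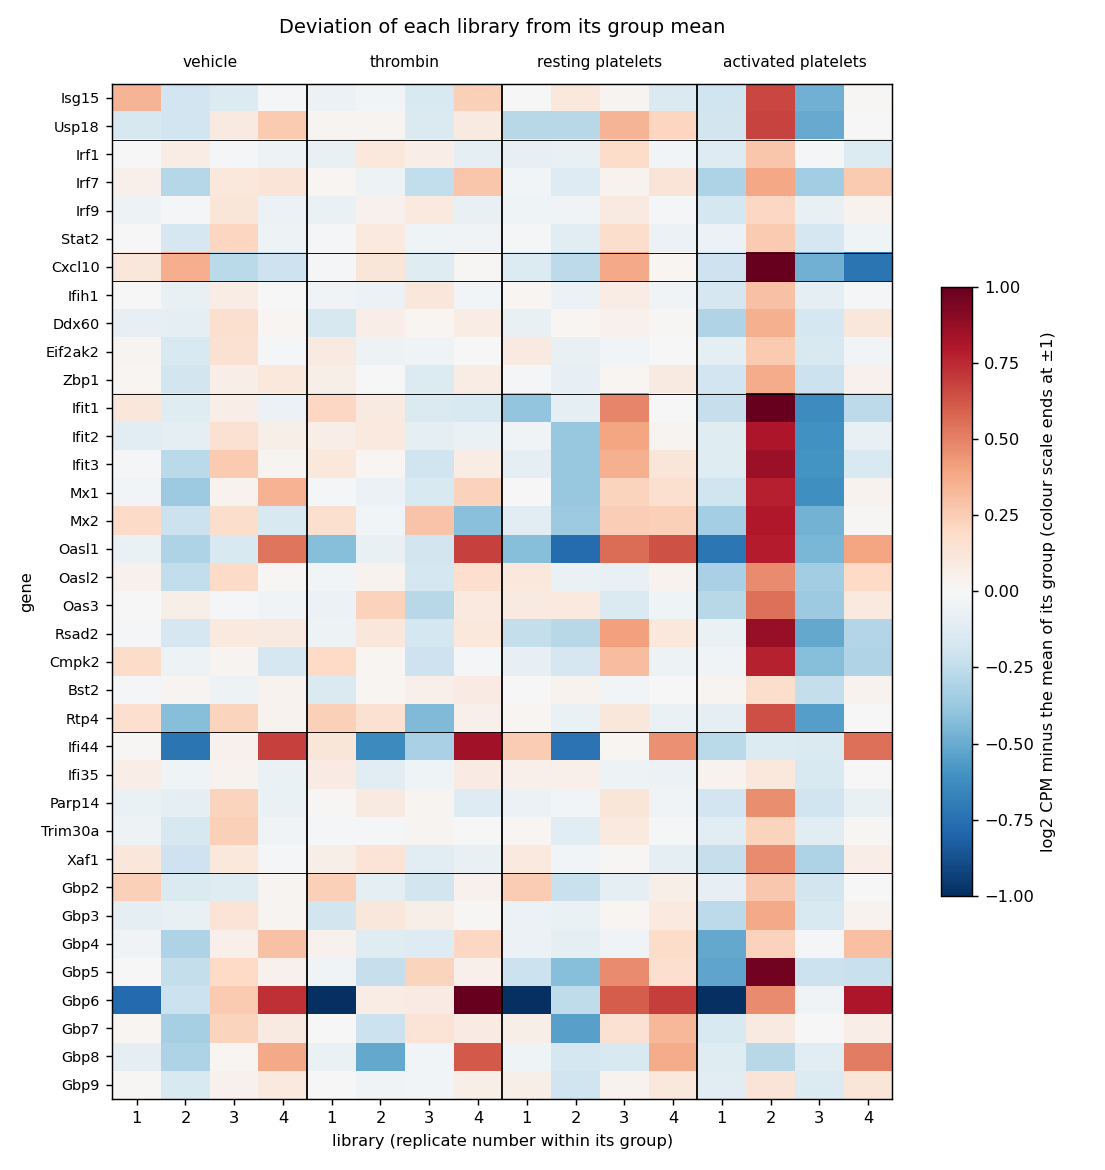
Log2 CPM of each library minus the mean of its group (colour, ends at ± 1) for the 36 tested genes (rows) in the 16 libraries (columns, by group and replicate number). The second activated library is red for 34 of 36 genes, and Gbp6, Gbp8 and Ifi44 differ by replicate number in all groups.

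Resting platelets gave small values, most of them below 0. Against vehicle 1 of 36 genes fell, Gbp9, and none rose, where 3.39% of all tested genes were called, 1.32% lower and 2.07% higher. The median was -0.19, beside -0.00 over all tested genes, and 35 of 36 values were below 0, all but Gbp5. The largest after Gbp9 and Gbp8 were Rtp4 (-0.48 ± 0.21), Gbp6 (-0.44 ± 0.49), Oasl1 (-0.41 ± 0.38) and Oas3 (-0.38 ± 0.15), none of which was called. Within replicate numbers 1 to 4, resting minus vehicle for the mean of the 28 genes outside the Gbp family was -0.29, -0.23, -0.14 and -0.21. With the replicate block 6 genes fell (Irf1, Ddx60, Zbp1, Gbp7, Gbp8 and Gbp9), where 10.6% of all genes were called lower and 10.9% higher.

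Thrombin alone gave no call among the 36 genes, where 0.288% of all tested genes were called, 0.0897% higher and 0.199% lower. The median was -0.13, beside 0.01 over all tested genes, with 28 of 36 values below 0, and 2 genes had an unadjusted p under 0.05 in edgeR, both lower. Those were Zbp1 (-0.35 ± 0.11, edgeR adjusted p = 0.211) and Irf7. With the replicate block Zbp1 alone was called (0.0309), where 4.32% of all genes were called lower and 3.91% higher. Without the second activated library 0 were called, where 0.133% of all genes were. With the block as well, a fit chosen after the data were seen, 5 were lower, where 4.85% of all genes were. Those were Irf1, Irf7, Cxcl10, Zbp1 and Xaf1. The Gbp family was centred on 0 with thrombin, its 8 values lying between -0.03 and 0.06.

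Thrombin was also compared with activated platelets, where 25.4% of all tested genes were called (11.9% higher, 13.5% lower), and 2 of 36 rose (Isg15 and Irf7) and 4 fell: Ddx60 (-0.50 ± 0.11), Gbp4 (-1.24 ± 0.21), Gbp8 (-1.36 ± 0.23) and Gbp9 (-1.38 ± 0.08). Between activated and resting platelets, where 15.8% were called (7.34% higher, 8.49% lower), 3 fell (Gbp4, Gbp8 and Gbp9) and none rose. For the thrombin effect with platelets minus that without, where 9.93% were called (4.56% higher, 5.37% lower), 1 was higher (Irf7) and 2 were lower (Gbp4 and Gbp9). In each of these comparisons the share called was below that over all genes (edgeR). Without the second activated library, 0 rose and 8 fell against thrombin, where 12.5% of all genes were called lower, and the median of the 36 genes went from 0.04 to -0.19. The rises of Isg15 and Irf7 were lost, and Irf1, Ifih1, Ifit2 and Oas3 were called as well. Against resting platelets 0 rose and 6 fell without it, where 7.39% of all genes were called lower, and the median went from 0.06 to -0.13. There Irf1, Cxcl10, Ddx60 and Ifit2 were added and Gbp8 was lost. In the interaction Gbp4 and Gbp9 were called lower without it and none higher, where 5.26% of all genes were called lower, and the median went from 0.21 to -0.01. With the replicate block 4 rose and 6 fell against thrombin, where 19.6% and 22% of all genes did. Against resting platelets 2 rose and 4 fell with the block, where 15.9% and 18.6% of all genes did, and in the interaction 5 were higher and 3 lower, where 13.1% and 15.9% of all genes were. The comparisons share libraries and are not independent.

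Across libraries the genes moved together within their groups. After each group's mean was removed from log2 CPM, the median Pearson correlation over the 630 pairs of the 36 genes was 0.60, with 95.4% of pairs above 0, beside 0.00228 over pairs of all tested genes. The points are 16 libraries in 4 groups, and all genes of a library share its scaling. Among the 28 genes outside the Gbp family the median was 0.67, among the 8 Gbp genes 0.51, and between the families 0.46. Without the second activated library these became 0.32, 0.52 and 0.31, and that of all 36 became 0.33. When replicate number means were removed as well, the medians were 0.79, 0.73 and 0.76.

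Single genes were set against the mean of the genes outside the Gbp family, each left out of its own mean. Ifit3 correlated at r = 0.96 (Spearman's rho 0.92), Mx1 at 0.94 (0.89), Zbp1 at 0.94 (0.86), Ifit2 at 0.93 (0.82), Rsad2 at 0.92 (0.84) and Usp18 at 0.92 (0.90). Other antiviral effectors were lower, among them Oas3 at 0.70, Oasl1 at 0.69 and Bst2 at 0.57. Without the second activated library the first 6 lay between 0.75 and 0.89 and Oas3 and Bst2 both at 0.21, whereas that of Cxcl10 went from 0.70 to -0.09 and that of Irf1 from 0.57 to -0.08. The closest pairs were Ifit2 with Ifit3 (0.97), Ifit3 with Rsad2 (0.96) and Ddx60 with Gbp3 (0.95), and without that library they were at 0.91, 0.89 and 0.90. At the other end lay Gbp8 (0.05), Ifi44 (0.20), Gbp6 (0.41) and Ifi35 (0.44), which without that library were at 0.52, 0.56, 0.46 and 0.15. The lowest pair was Irf1 with Gbp8 (-0.57), whereas Gbp8 correlated with Ifi44 at 0.88 and with Gbp4 at 0.64.

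**Figure D5:**
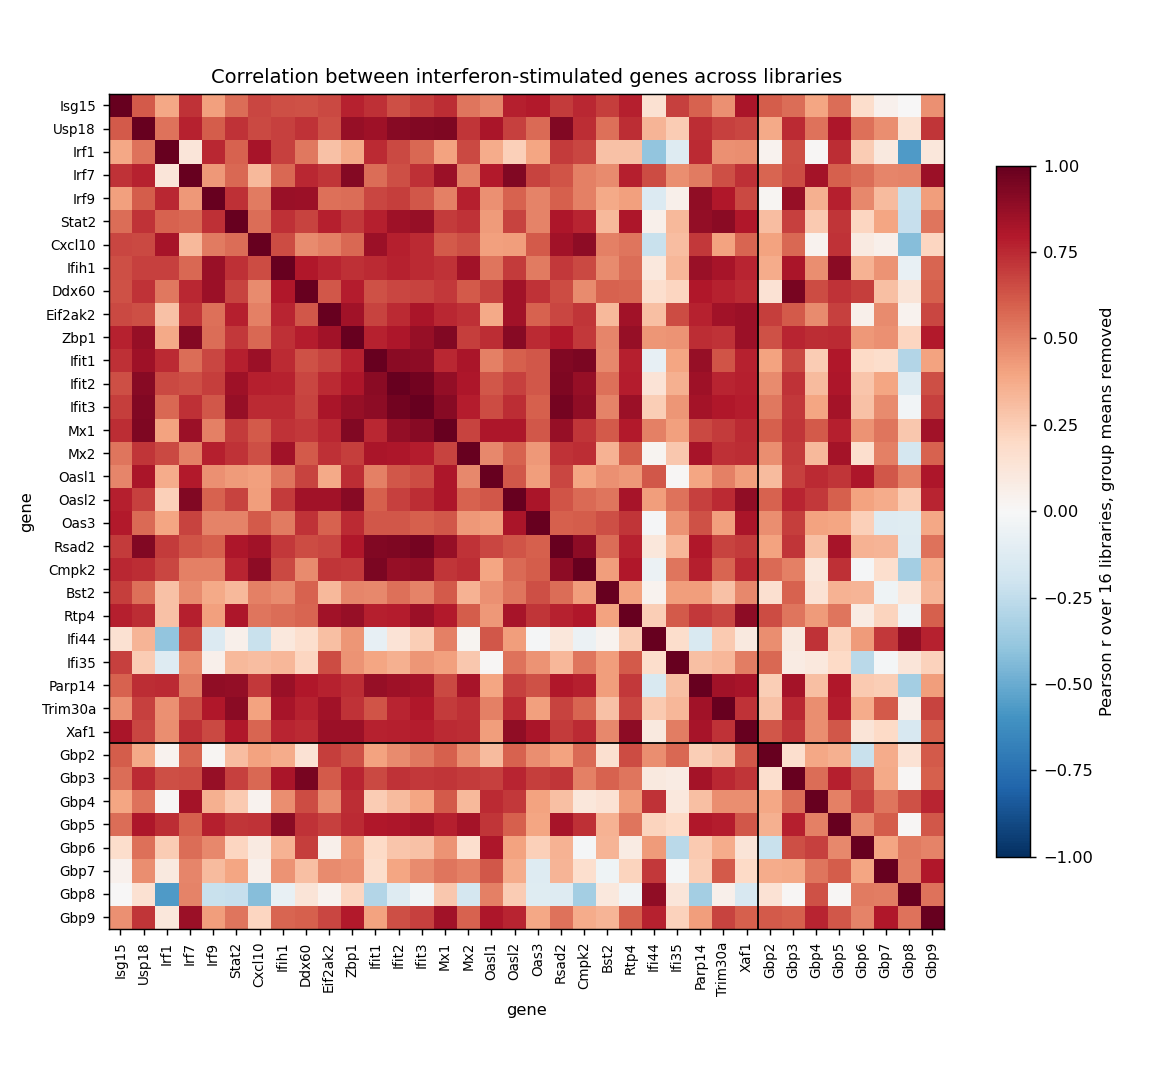
Pearson correlation (colour) of each pair of the 36 tested genes over 16 libraries after group means were removed from log2 CPM, with lines between the Gbp family and the rest. Most cells are red (95.4% of pairs are above 0). The rows of Gbp8 and Ifi44 hold pale or blue cells beside red ones, and these genes correlate with each other at 0.88.

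The rest of the pathway was read from lists of known genes, in activated platelets against vehicle with edgeR. There 12.2% of all tested genes were called higher and 13.6% lower. All libraries were kept, and counts of these lists without the second activated library are not given here. Calls are those without the replicate block unless it is named. Of 8 tested receptors and kinases, 3 rose and 2 fell: the receptor chains Ifnar1 (0.22 ± 0.03) and Ifngr2 (0.38 ± 0.05) and the kinase Jak2 (0.26 ± 0.06) rose, while Ifngr1 (-0.35 ± 0.07), the ligand-binding chain for interferon gamma, and the kinase Tyk2 (-0.22 ± 0.06) fell. Ifnar2 (0.09 ± 0.05) and Jak1 (-0.06 ± 0.05) were not called. Of 7 other genes listed as STAT and IRF factors, which share that background, 2 rose, Stat3 (0.26 ± 0.05) and Irf2bp2 (0.27 ± 0.04), whose product binds Irf2 and is not itself an IRF, and 2 fell, Irf4 (-1.12 ± 0.27) and Irf5 (-0.34 ± 0.07), which acts below Toll-like receptors. Irf3 gave -0.07 ± 0.06 and Irf8 -0.23 ± 0.12, neither of them called. With resting platelets Ifngr2 was the one gene of these 2 lists to be called (0.18 ± 0.05, edgeR adjusted p = 0.0485), where 2.07% of all genes were called higher, and with thrombin none was.

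Of 9 negative regulators, beside the same 12.2% higher and 13.6% lower over all genes, 2 rose, among them Socs3, which blocks cytokine receptors (0.70 ± 0.14), and 3 fell, among them the phosphatase Ptpn6 (-0.67 ± 0.05) and the nucleotide hydrolase Samhd1 (-0.55 ± 0.07). Socs1, the inhibitor of the interferon receptors, was not called (-0.21 ± 0.23). Of 15 sensors and adaptors upstream of interferon, beside the same shares, 4 rose, among them Tlr3 (0.30 ± 0.06) and Traf3 (0.32 ± 0.07), and 4 fell, among them Ticam1 (-0.58 ± 0.08), the adaptor of Tlr3, and Tlr4 (-0.31 ± 0.05).

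A further list of 48 interferon-stimulated genes, 45 of them tested, gave 2 higher and 13 lower, where 12.2% and 13.6% of all genes were so called. Trim25, a ubiquitin ligase that activates RNA sensing (0.61 ± 0.07), and Shisa5 (0.24 ± 0.06) rose. Among the 13, Mndal (-0.88 ± 0.10), of the DNA-binding Ifi200 family, and Trim21, an intracellular antibody receptor (-0.51 ± 0.06), fell. The median was -0.13, and 31 of 45 values were below 0. With the replicate block 4 were higher and 16 lower, where 20% and 22.5% of all genes were. Resting platelets gave 0 higher and 3 lower without the block, where 2.07% and 1.32% of all genes were so called. With the block they gave 1 higher and 11 lower, where 10.9% and 10.6% of all genes were. With thrombin none was called. Of 16 interferon gamma targets in antigen presentation, 2 fell with activated platelets and none rose, where 13.6% and 12.2% of all genes did. They were Ciita, the master regulator of class II genes (-1.33 ± 0.31), and Nlrc5, its class I counterpart (-0.38 ± 0.06). With the block 2 were higher and 7 lower, where 20% and 22.5% of all genes were. With resting platelets 1 was lower without the block and 7 with it, where 1.32% and 10.6% of all genes were. The markers of B cells, a cell type that also expresses Ciita, were lower with activated platelets, as given above. Their part in the fall of Ciita was not tested.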

How the data were processed

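RNA of 16 macrophage libraries was sequenced after poly(A) library preparation with a strand-preserving kit, per the labels' protocols, and libraries were placed in groups by their titles. The authors deposited 1 table of estimated counts per gene with no normalization, with gene coordinates on GRCm39 per the file headers. The tools named, per the submitters' processing notes, were STAR 2.7.2b, cutadapt 2.5 and featureCounts 1.6.4 (Subread), and the builds GRCm39 and mm10, with no role or order. How strand and reads with several matches were handled is not given in the sources used here, so overlapping, antisense and near-identical genes are uncertain as single genes. The design was written for whole counts. Of values above 0, 25.5% were not whole, and all were rounded. The changes made by rounding came to 0.00734% of the summed counts. Genes were filtered with filterByExpr by group and scaled by TMM. All 16 libraries were fitted as 4 groups in edgeR 4.0.16 (R 4.3.3, robust quasi-likelihood, two-sided), and p-values were Benjamini-Hochberg adjusted over 15610 genes with a threshold of 0.05, in 6 comparisons. The test was checked on simulated data with independent libraries. These data had no effect of replicate number and no library that stood apart, so the check does not cover either. Standard errors came from the F statistic, and mean log2 CPM and correlations used a prior count of 2.

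The genes, the lists and the rule for named genes were chosen with earlier results of these data known, and nothing here is independent of them. Every gene of the 37 could be named. Values in every library are given for genes called against vehicle, for Isg15, Irf7 and Cxcl10 and for the Gbp genes. From each list, up to 2 rising and 2 falling genes with the smallest p in activated platelets against vehicle could be named, plus the receptors, Jak1, Tyk2, Irf3, Irf5, Irf8, Socs1, Socs3 and the ligands Ifnb1 and Ifng. Jak2 and Ifnk were named after their values were seen. A further gene of that rule is not reported here. One sensor was listed under its older symbol Ddx58.

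Groups shared replicate numbers. After group means were removed over 15610 genes, correlations of the 24 pairs with the same number were 0.29 to 0.617 and those of the other 72 pairs -0.436 to 0.253. All 16 libraries were closest to one of the same number. Over the 36 genes alone, same-number pairs ran from -0.432 to 0.903, and 14 of 16 libraries were closest to one of their number. Numbers were taken as pairs on this ground alone, since their meaning is absent from the labels. Between replicates of a group, chi-square per degree of freedom was 8.43 to 36.2, and none was a repeat deposit. Alternatives were the replicate block, RLE scaling, no filter, DESeq2 1.42.0, a prior count of 0.5 and leaving out each library or replicate number.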

Additional observations from a re-analysis of the deposited data

Results flagged for a closer look

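Within groups of 4 libraries, a library was marked where its gap to the nearest other exceeded Dixon's 95% critical share of the group's range, which chance gives in about 1 of 20 groups. Of 164 groups examined, 8 were marked, each by a high library, and 4 of the 8 were the second activated platelet library. In that library Cxcl10 lay at 11.99 CPM (others 2.64 to 3.83), Ifit1 at 27.0 CPM (others 7.98 to 10.5), Parp14 at 251.2 CPM (others 159 to 173) and Gbp5 at 10.1 CPM (others 3.53 to 4.42). In the fourth activated library Ifi44 lay at 7.17 CPM, beside 4.02 to 4.40 CPM in the others. In libraries of replicate number 3, Irf9 lay at 55.1 CPM with resting platelets (others 50.3 to 50.9), Ifih1 at 44.3 CPM with thrombin (others 39.4 to 40.2) and Parp14 at 235.5 CPM in vehicle (others 190 to 193).

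The thrombin effect differed with and without platelets for 3 genes by edgeR's interaction test, on the log2 scale: Irf7 by 0.78 (adjusted p = 0.0337), Gbp4 by -1.01 (0.0377) and Gbp9 by -0.76 (0.00051). The Irf7 and Gbp4 calls did not hold when most single libraries were left out, and the Gbp9 call held in all 16 such fits.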

How the results depend on the processing

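The Gbp9 calls with resting and activated platelets kept their direction and side of the threshold under every alternative run, and no called value changed direction. With the replicate block, 1 gene fell with thrombin, 6 with resting and 8 with activated platelets; activated platelets against thrombin gave 4 higher, activated against resting 2 higher, and the interaction 5 higher. Without the filter, activated platelets against thrombin gave 0 higher, and the interaction 0 higher and 1 lower; DESeq2 gave 4 higher and 1 lower in the interaction. Leaving out each library or replicate number gave 4 to 15 lower for activated platelets against vehicle (14 without the second activated library), 0 to 4 higher and 4 to 8 lower against thrombin, 0 to 3 higher and 1 to 6 lower against resting platelets, and 0 to 4 higher and 1 to 3 lower in the interaction. The block without the second activated library was chosen after the data were seen. Against vehicle it gave 5, 15 and 20 lower (thrombin, resting, activated), where 4.85%, 11.1% and 20.7% of all genes were. Against thrombin it gave 0 higher and 15 lower (20.1% of all genes lower), and against resting platelets 11 lower (16.9%). In the interaction it gave 6 higher and 6 lower, where 28% of all genes were called, 14.9% lower. The median correlation of all genes was 0.26 to 0.72 with 1 replicate number left out, and that outside the Gbp family 0.27 to 0.78, or 0.32 without the second activated library. Fewer libraries, genes or residual degrees of freedom enter some of these fits; beyond that the cause was not tested.

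Of 4400 values of uncalled genes compared with an alternative, 396 changed sign, so the direction of an uncalled gene is not firm. Gbp4 (at most 32 counts in a library) and Cxcl9 (at most 13) are limited by depth.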
